A study of Mus musculus with 12 samples.

Results

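The 9 genes described here form the core of the circadian clock: the activators Arntl, Clock and Npas2, the period genes Per1, Per2 and Per3, the cryptochromes Cry1 and Cry2, and the repressor gene Ciart. They were chosen by their symbols among the 25033 rows of the Ribo-seq table, and all 9 were found. In Ribo-seq the stretches of mRNA covered by ribosomes are sequenced, and each read on a gene is 1 ribosome footprint. The livers came from male C57BL/6 mice aged 16 weeks fed from week 8 of age, for 8 weeks, with either a high-fat diet (HFD, n = 3 libraries) or a high-fat diet with lycopene, a carotenoid of tomato (LYC, n = 3 libraries). No gene was altered in either group, both groups ate the high-fat feed, and a standard-feed group of the study was not analysed here. That the feed held lycopene comes from the sample titles and the paper, as the LYC treatment label speaks of high-fat diet alone. The labels also speak of pooling RNA or footprints of the groups before library construction, and only the paper calls the libraries biological replicates. The hour at which the livers were taken is not given in the sources used here, and the groups could not be set against the time of day.

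In the mammalian clock BMAL1, the product of Arntl, pairs with CLOCK or with its paralog NPAS2, and the pair binds E-box sequences and activates transcription. Among the genes it drives are Per1, Per2, Per3, Cry1, Cry2 and Ciart, whose proteins act back on the pair and repress it, which closes the loop about once a day. A second loop sets Arntl, Clock and Npas2 themselves: REV-ERB receptors repress and ROR receptors activate them through a shared response element (RORE). In mouse liver the mRNA of Arntl and Npas2 peaks at another time of day than the mRNA of the period genes, and the liver clock times much of lipid and glucose metabolism.

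The Ribo-seq values are RPKM, which scales reads to gene length and library size, and its smallest steps give back the whole reads behind each value. The library totals were 834410 to 4405541 reads in HFD and 311050 to 412116 reads in LYC, so a low gene is seen less well in LYC. On these 9 genes together 119 to 750 reads fell in an HFD library and 40 to 56 reads in a LYC library. The summed RPKM of the 9 genes was 31.4 ± 1.15 for HFD and 32.8 ± 7.09 for LYC (mean ± SD, n = 3). Hepatocyte markers were above 0 in every library for 8 of 8 genes, with a summed RPKM of 40348 to 44774 in HFD and 28550 to 37471 in LYC, although 1 of them, Tat, was itself called higher in LYC by limma. Lower sums in LYC without overlap were also found for 5 cholangiocyte markers (HFD 15.4 to 25.0, LYC 2.89 to 9.25, 2 of the 5 above 0 in every library) and for 5 lymphocyte markers (3.57 to 4.38 and 0.612 to 2.77, 1 of the 5 above 0 in every library). The sums overlapped between the groups for 8 Kupffer cell and macrophage markers (124 to 165 in HFD and 98.9 to 174 in LYC), 6 endothelial markers (58.4 to 80.3 and 16.8 to 115), 6 stellate cell and fibroblast markers (83.0 to 159 and 80.8 to 122) and 4 erythroid markers (322 to 652 and 504 to 648), with the Kupffer cell marker Timd4 called lower in LYC. No marker was at 0 in every library, and the part of these differences and of the depth in the results was not tested. In such bulk livers fewer cells of a type and less RNA per cell cannot be told apart.

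A second deposited table is labelled RNA-seq and gives read counts for 6 libraries, and its counts were compared with the recovered Ribo-seq reads gene by gene. In the LYC libraries all 27 values of the 9 genes were the same read number in both tables, library by library. In the HFD libraries 13 of the 27 values were the same, and the largest difference on a gene was 10 reads, but the order of the libraries differed. The library labelled RNA-seq HFD1 matched Ribo-seq HFD2, HFD2 matched HFD3, and HFD3 matched HFD1. Over all genes with a read, the share with the same number was 22.8% to 75.3% in these 6 pairs and 0.282% to 6.98% in the other pairs. The counts labelled RNA-seq were therefore not taken as a separate measure of mRNA, and no ratio of footprints to mRNA was formed.

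**Figure D1:**
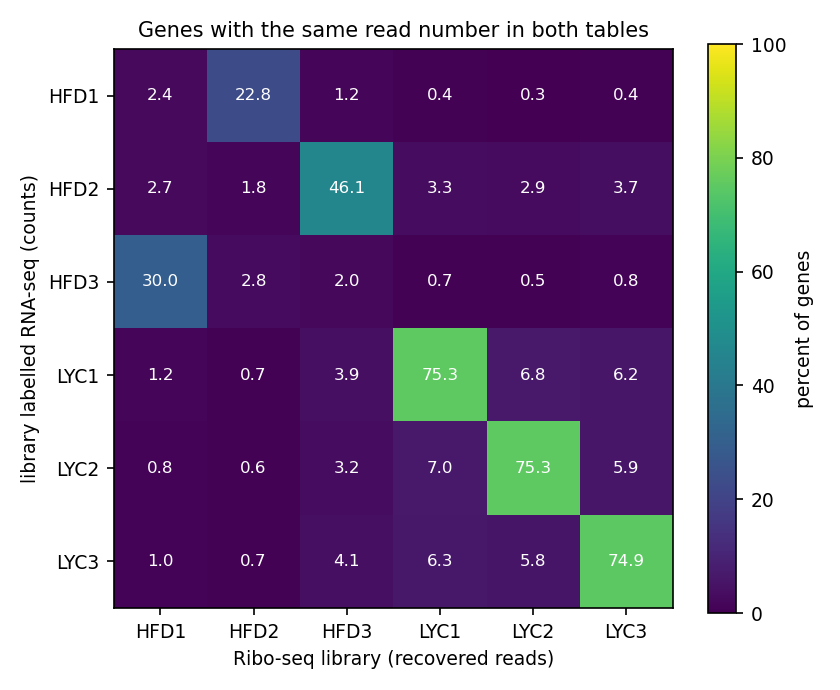
Share of genes with the same read number in a library labelled RNA-seq (rows, deposited counts) and in a Ribo-seq library (columns, reads recovered from RPKM), in percent of the genes with a read in either. Each row has 1 high cell, at 74.9% to 75.3% for LYC and at 22.8% to 46.1% for HFD, and the HFD cells lie off the diagonal.

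The loop acts through short promoter sequences, so matches to these in the promoters of the clock genes are shown first. RefSeq windows from 250 bases before to 50 bases after an annotated start (GRCm38.p6) were found for 8 of the 9 genes, all but Per2, in 12 windows. Searched on both strands were the E-box (CACGTG), the E′-box (CACGTT), the D-box (TTATGTAA), the RORE (TAGGTCA or TGGGTCA, each after an A and 2 bases of any kind) and the CRE (TGACGTCA). These motifs occur in 7.15%, 4.68%, 0.938%, 1.60% and 1.79% of all 32851 windows of the table. Ciart had 3 E-boxes in its window, which 0.0883% of all windows have, and Per1 had 1 at its first start. The window of Cry1 held an E-box and an E′-box, and that of Cry2 an E′-box. Per3 had a pair of D-boxes, as 0.0213% of all windows do. The only RORE lay in Arntl, 27 bases past its second start. No match was found in the 3 windows of Clock, in the window of Npas2 or in the second window of Per1, and no CRE in any. A match is a description of these letters and not a site of binding. The stretches with the matches follow, 5′ to 3′ on the strand of the gene, with the motifs in capitals; AACGTG is the E′-box read on the other strand.
Ciart, E-boxes, chr3:95882237-95882374, minus strand: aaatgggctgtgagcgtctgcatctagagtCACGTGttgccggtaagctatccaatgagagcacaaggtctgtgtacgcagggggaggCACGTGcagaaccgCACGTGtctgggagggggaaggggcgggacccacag
Per1, E-box, chr11:69098753-69098818, plus strand: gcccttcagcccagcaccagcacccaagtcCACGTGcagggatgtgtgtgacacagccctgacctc
Cry1, E′-box and E-box, chr10:85185079-85185163, minus strand: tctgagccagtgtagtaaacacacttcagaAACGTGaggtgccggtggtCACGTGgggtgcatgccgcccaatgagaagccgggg
Cry2, E′-box, chr2:92434200-92434265, minus strand: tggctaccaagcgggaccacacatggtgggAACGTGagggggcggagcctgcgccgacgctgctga
Per3, D-boxes, chr4:151044786-151044900, minus strand: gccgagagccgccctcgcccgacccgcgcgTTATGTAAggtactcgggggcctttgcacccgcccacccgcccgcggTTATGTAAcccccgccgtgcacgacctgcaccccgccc
Arntl, RORE, chr7:113207528-113207557, plus strand: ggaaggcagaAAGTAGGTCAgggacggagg

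**Figure D2:**
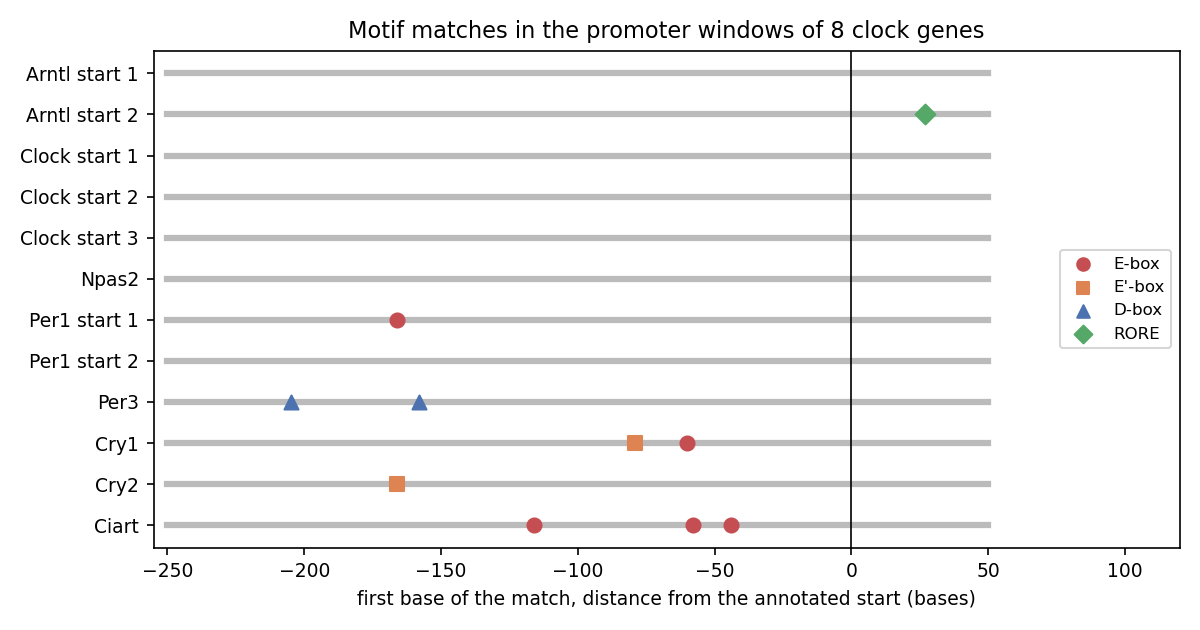
Matches of 4 motifs in the 12 promoter windows of 8 clock genes, placed by the distance of their first base from the annotated start (grey bars run from 250 bases before to 50 bases after it). Ciart holds 3 E-boxes, Per3 a pair of D-boxes and Arntl a RORE just past its second start, and the windows of Clock and Npas2 hold none.

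The LYC and HFD libraries were set against each other gene by gene with limma, two-sided, on log2(RPKM / TMM factor + 1), where TMM is edgeR's scaling between libraries. A mean of at least 2 CPM (reads scaled to library size) was asked, which 11025 genes reached. Calls asked for a log2 fold change beyond 1 in either direction and p under 0.01 before adjustment, the limits in the paper's results. Its methods name p under 0.001, at which 1 of the 9 genes, Arntl, was called lower and 0 higher. All 9 clock genes passed the filter, and 5 of them also passed the stricter filterByExpr. Arntl, Npas2 and Ciart, 3 of the 4 genes called, passed only through the group where they were high, and filterByExpr dropped them. Lower in LYC were called 3 of the 9, which were Arntl, Clock and Npas2, where 6.72% of all genes tested were called lower. Higher in LYC was called 1 of the 9, Ciart, where 3.47% of all genes were called higher. Of the 5 genes that filterByExpr kept, 0 were called higher and 1, Clock, lower, against 323 and 432 of 5625 genes. The other 3 calls thus rest on genes that entered the test through 1 group. The groups stood fully apart in 6 of the 9 genes, 3 in each direction, where this held for 31.9% of all genes tested (25.0% with LYC lower and 6.91% with LYC higher). For Ciart, 1 of the 3 higher genes, this was fixed once each LYC library held a read, since 1 read there exceeds every HFD value. For Per3, another of the 3, it rests on 2 reads in LYC1 and 2 in LYC2. On the recovered reads edgeR's quasi-likelihood test called 2 of the 9 lower (Arntl and Clock) and 2 higher (Per2 and Ciart), where it called 7.45% and 4.43% of all genes (11.9% in either direction). DESeq2 called the same 4 genes, where it called 4.54% of all genes lower and 5.53% higher (10.1% in either direction). In the table labelled RNA-seq, which holds nearly the same reads, edgeR again called these 4, where 7.90% of 10813 genes were called lower and 5.12% higher. Over all genes tested the median change was -0.28 in log2, or -0.41 without TMM factors. With 3 libraries per group the smallest p of an exact permutation test of a gene is 0.1, so a call rests on the spread that the model shares across genes. Because 1 was added before the logarithm, changes come out too small for genes of a few RPKM, as most of the 9 were.

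Arntl, which encodes the activator BMAL1 (chromosome 7, 113207465 to 113314126, GRCm38), had an RPKM of 7.39, 3.23 and 6.24 in HFD1, HFD2 and HFD3, from 58, 41 and 15 reads. It was listed at 0 in all 3 LYC libraries. At the mean HFD level of 5.62 ± 2.15 (SD, n = 3) a total of 18.1 reads would have fallen in the LYC libraries together. Set against a floor of 3 reads in each LYC library, Arntl was at least 1.98-fold lower in LYC. The fitted log2 fold change, which depends on the pseudocount, was -2.59 (standard error 0.41, adjusted p = 0.0137, limma, after Benjamini and Hochberg). It was still called without HFD1 (-2.36), HFD2 (-2.88) or HFD3 (-2.49). Leaving out a LYC library only removes a 0, so those fits are no check. Arntl entered the test only through HFD, so no support is drawn from its calls. Of all genes tested, 2.97% were likewise above 0 in every HFD library and at 0 in every LYC library.

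Clock, the partner of BMAL1 that acetylates histones and binds E-boxes with it (chromosome 5, 76209868 to 76304792), had 6.93, 7.76 and 5.29 RPKM in HFD, from 184, 333 and 43 reads. In LYC it had 1.30, 2.64 and 1.49 RPKM, from 5, 8 and 6 reads. Every LYC library lay below every HFD library, and the mean fell from 6.66 ± 1.26 to 1.81 ± 0.724 (SD, n = 3 each), 3.68-fold lower in LYC. On the log2 scale the change was -1.33 (standard error 0.40), with p = 0.00975 by limma, just under the limit of a call, an adjusted p of 0.0901 and an exact permutation p of 0.1. On the recovered reads edgeR's quasi-likelihood test gave -1.78 (adjusted p = 0.00387). The limma call was lost without HFD1 (log2 fold change -1.27), HFD2 (-1.24), HFD3 (-1.46), LYC1 (-1.25) or LYC3 (-1.25).

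Npas2, the paralog of Clock that can replace it beside BMAL1 (chromosome 1, 39193731 to 39363236), had 2.90, 0.706 and 1.43 RPKM in HFD, from 33, 13 and 5 reads. Like Arntl it was listed at 0 in all 3 LYC libraries. The HFD mean of 1.68 ± 1.12 RPKM (SD, n = 3) corresponds to 7.84 reads over the LYC libraries together and lies under the floor of 3 reads per LYC library, which is 1.96 RPKM, so no fold is given. The fitted log2 value of -1.29 (standard error 0.37, adjusted p = 0.0796, limma), which depends on the pseudocount and is no bound, passed the limits of a call. Npas2 entered the test only through HFD, so no support is drawn from this call. Neither edgeR's quasi-likelihood test (adjusted p = 0.0888) nor DESeq2 (adjusted p = 0.122) called it. The limma call was also lost without HFD1 (log2 fold change -0.96) or HFD3 (-1.32). It was lost too without LYC1 (-1.32), LYC2 (-1.28) or LYC3 (-1.30), but these fits only remove a 0 and are no check.

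**Figure D3:**
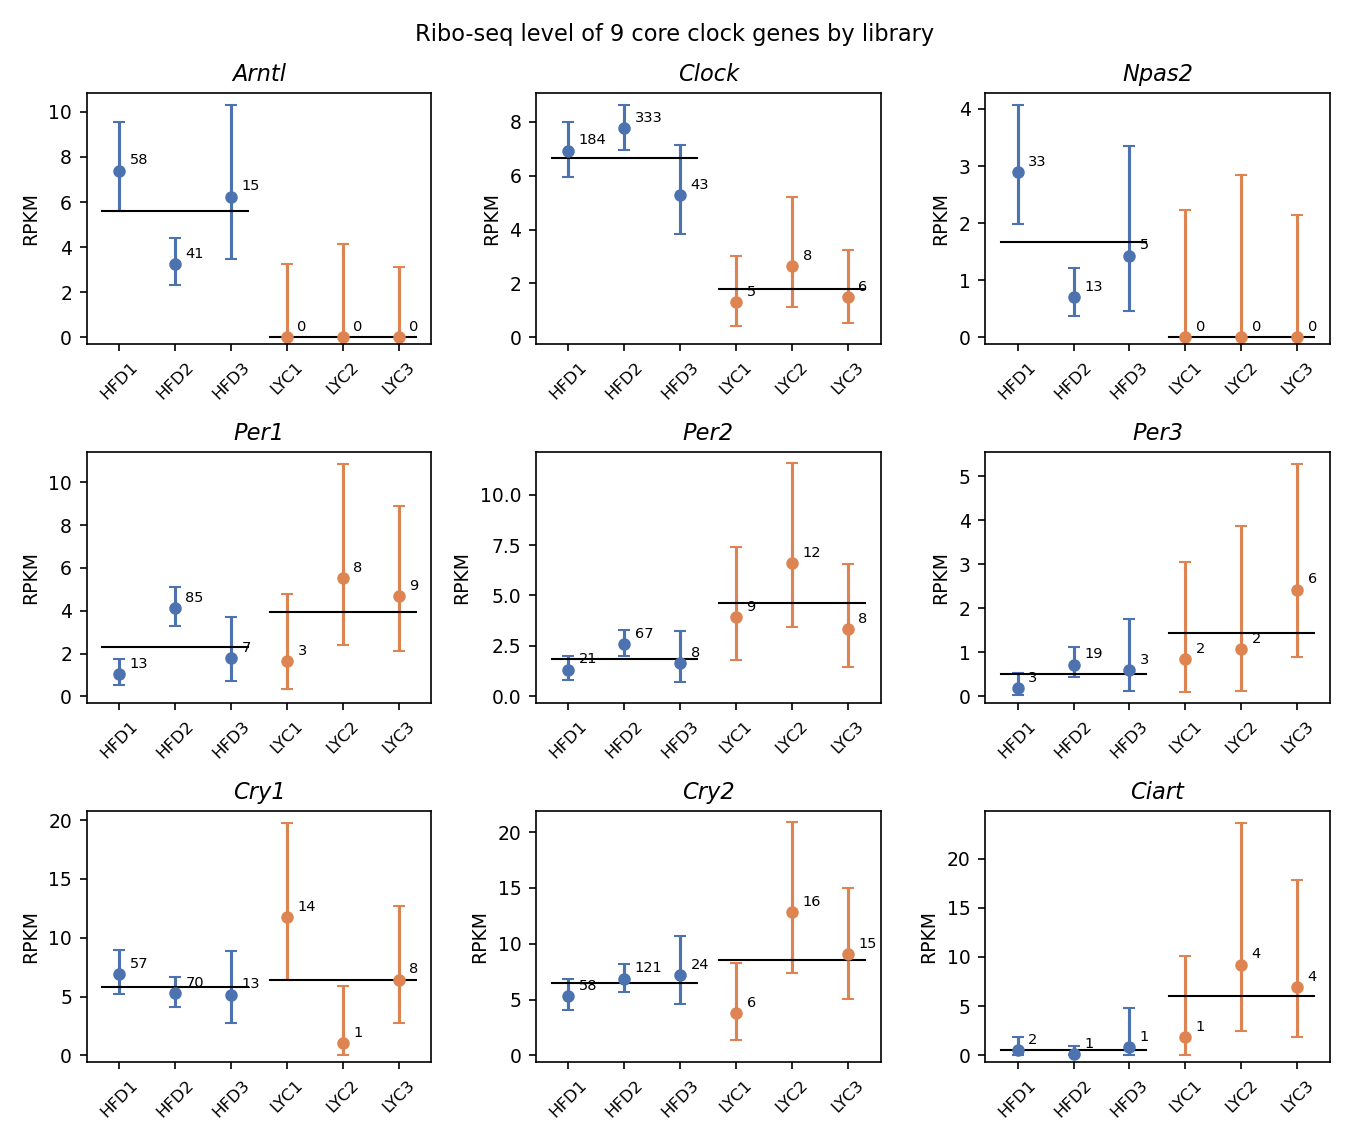
RPKM of each of the 9 clock genes in the 3 HFD (blue) and 3 LYC (orange) Ribo-seq libraries, with exact Poisson 95% intervals that cover counting error only, the number of reads beside each point and the group means as black lines. Arntl and Npas2 are at 0 in every LYC library, Clock lies below HFD in all 3, and Per2, Per3 and Ciart lie above HFD in all 3.

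Per2, a scaffold of the repressive complex with the cryptochromes (chromosome 1, 91415982 to 91459324), had 1.32, 2.61 and 1.64 RPKM in HFD, from 21, 67 and 8 reads. In LYC it had 3.91, 6.61 and 3.33 RPKM, from 9, 12 and 8 reads, and every LYC library lay above every HFD library. The HFD mean was 1.86 ± 0.669 and the LYC mean 4.61 ± 1.75 (SD, n = 3 each), 2.49 times as high. The log2 fold change of 1.09 (standard error 0.41, 95% interval 0.15 to 2.04) did not pass the test (adjusted p = 0.162, limma). On the recovered reads it did, with 1.40 by edgeR's quasi-likelihood test (adjusted p = 0.0633) and 1.55 by DESeq2 (adjusted p = 0.0220). In the nearly identical counts labelled RNA-seq edgeR's call of Per2 (1.36) was lost by total library size (0.45), with the replicate block (1.39) and on leaving out any single library other than LYC3 (1.13 to 1.69).

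Per1, the period gene that also responds quickly to hormones and fasting (chromosome 11, 69095217 to 69109960), had 1.02, 4.13 and 1.80 RPKM in HFD, from 13, 85 and 7 reads. The LYC libraries had 1.63, 5.51 and 4.68 RPKM, from 3, 8 and 9 reads. The groups overlapped, since HFD2 lay above LYC1, and the log2 fold change was 0.71 (95% interval -0.48 to 1.90, adjusted p = 0.441, limma).

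Per3, the least abundant of the period genes here (chromosome 4, 151003652 to 151044665), had 0.183, 0.719 and 0.599 RPKM in HFD, from 3, 19 and 3 reads. In LYC it had 0.845, 1.07 and 2.43 RPKM, from 2, 2 and 6 reads. The groups did not overlap, with means of 0.501 ± 0.281 for HFD and 1.45 ± 0.855 for LYC (SD, n = 3 each), but the log2 fold change of 0.76 (95% interval -0.10 to 1.61) was not called (adjusted p = 0.261, limma). These values rest on 25 reads in HFD and 10 in LYC, and the 2 reads of LYC1 and of LYC2 lie under the floor of 3. In a LYC library 1 read is worth 0.404 to 0.535 RPKM, less than the highest HFD value of 0.719. With 1 read fewer in LYC1 or LYC2 the groups would thus have overlapped. Its reads may include some of Camta1, which overlaps it on the same strand.

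Cry1, the cryptochrome that is the stronger repressor of BMAL1 and CLOCK (chromosome 10, 85131700 to 85185064), was close to even in HFD, at 6.93, 5.27 and 5.17 RPKM from 57, 70 and 13 reads. The LYC libraries had 11.8, 1.07 and 6.44 RPKM from 14, 1 and 8 reads, and thus lay above, below and within the HFD range. Between LYC1 and LYC2 the ratio was 11.0, with an exact 95% interval of 1.68 to 467 for counting error, so these 2 libraries differed beyond it. The log2 fold change between the groups was -0.04 (95% interval -1.64 to 1.55, adjusted p = 0.98, limma). Without LYC2 it was 0.79, and without LYC1 -0.68.

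Cry2, the second cryptochrome (chromosome 2, 92403646 to 92434043), had 5.32, 6.86 and 7.19 RPKM in HFD from 58, 121 and 24 reads, and 3.8, 12.9 and 9.10 RPKM in LYC from 6, 16 and 15 reads. LYC1 was the lowest of all 6 libraries and the other LYC libraries were the highest. Its log2 fold change was 0.40 (95% interval -0.58 to 1.38, adjusted p = 0.609, limma). Within LYC the cryptochromes stood in opposite order, since LYC1 had the most Cry1 and the least Cry2, and LYC2 the reverse.

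Ciart, also called Chrono, encodes a repressor that binds BMAL1 (chromosome 3, 95878503 to 95882251). It had 0.526, 0.163 and 0.859 RPKM in HFD from 2, 1 and 1 reads, and 1.82, 9.22 and 6.96 RPKM in LYC from 1, 4 and 4 reads. Every LYC library lay above every HFD library, but 1 read is worth 1.74 to 2.3 RPKM in a LYC library and the highest HFD value was 0.859, so at this depth any LYC library with a read had to. The mean rose from 0.516 ± 0.348 to 6.00 ± 3.79 (SD, n = 3 each), and the log2 fold change was 2.13 (standard error 0.53, adjusted p = 0.0562, limma). Ciart entered the test only through LYC, so no support is drawn from its calls by any tool. By pooled reads, 4 in HFD and 9 in LYC, the ratio of LYC to HFD was 16.0 with an exact 95% interval of 4.48 to 71.3 for counting error. In edgeR's quasi-likelihood test the log2 fold change was 3.86 (adjusted p = 0.0303). In the counts labelled RNA-seq edgeR's value of 3.91 was no longer called with the replicate block (3.51) or without the library labelled HFD1 there (3.12). The limma call was lost without HFD1 (log2 fold change 2.15), HFD2 (1.94) or HFD3 (2.27). Ciart, Arntl, Cry2 and Npas2 overlap annotated genes on the other strand (C920021L13Rik, Gm45355, D930015M05Rik and Gm20428), and Npas2 and Clock overlap others on their own strand (Gm3617, and Ube2n-ps1 with Gm43658). As no strand setting of the counting is given, reads in the overlaps cannot be told apart.

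**Figure D4:**
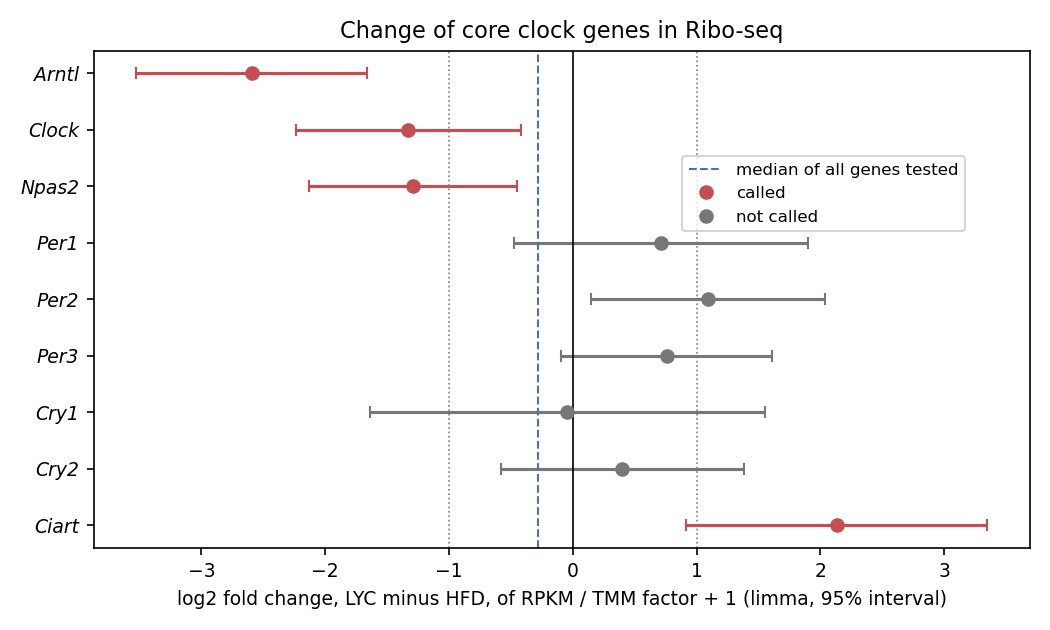
Log2 fold change of LYC against HFD for the 9 clock genes on the log2(RPKM / TMM factor + 1) scale, with 95% intervals from limma; red points were called, the dashed line is the median of all 11025 genes (-0.28) and dotted lines mark a log2 fold change of 1 in either direction. The 3 activators lie left of -1, Ciart lies at 2.13, and the intervals of Per1, Per3, Cry1 and Cry2 hold 0.

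A ratio of genes within a library does not depend on the scaling between libraries. It does depend on the gene lengths behind RPKM (9744 bases for Clock and 5837 for Per2). Where a ratio stands against 1 is therefore not read as a result. The summed RPKM of Arntl, Clock and Npas2 came to 17.2, 11.7 and 13.0 for HFD against 1.30, 2.64 and 1.49 for LYC, where it is Clock alone. With Arntl and Npas2 set to the floor of 3 reads in each LYC library it is at most 5.76, 8.30 and 5.76. That of Per1, Per2 and Per3 came to 2.52, 7.46 and 4.04 for HFD against 6.38, 13.2 and 10.4 for LYC. The period genes together thus had 0.147, 0.638 and 0.312 times the activator level in HFD, and at that floor 1.11, 1.59 and 1.81 times in LYC, against 4.91, 5.00 and 6.98 times with both genes taken as 0. Per2 alone had 0.191, 0.336 and 0.311 times the Clock level in HFD, against 3.00, 2.5 and 2.23 times in LYC. The cryptochromes summed to 12.2 ± 0.111 for HFD and to 15.0 ± 0.941 for LYC (SD, n = 3 each), the most even of these sums for its size in either group. Their ratio to the activators was 0.712, 1.04 and 0.953 in HFD, so it passed 1 in HFD2, and 2.70, 1.68 and 2.70 in LYC at the same floor. These ratios are given with no test, as the genes were chosen with earlier results known.

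**Figure D5:**
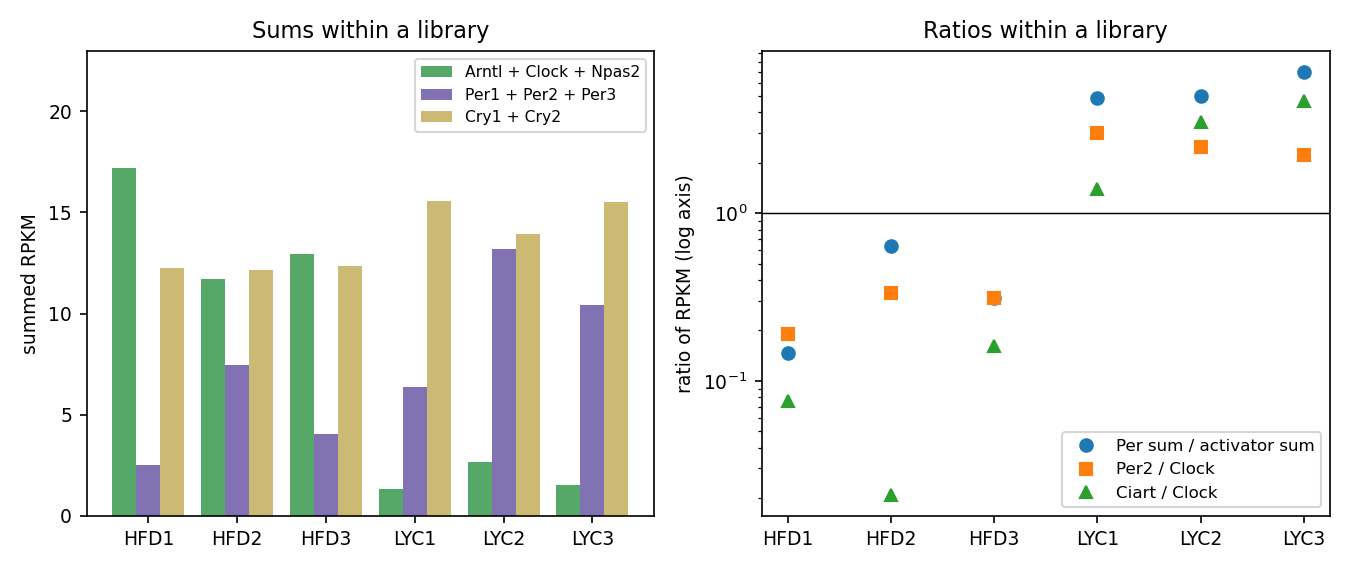
Left, summed RPKM of the activators, the period genes and the cryptochromes in each Ribo-seq library; right, ratios within a library on a log axis. In LYC the activator sum is 1.30 to 2.64, from Clock alone with Arntl and Npas2 drawn at 0 (5.76 to 8.30 at a floor of 3 reads each), against 11.7 to 17.2 in HFD. The ratios plotted (period genes to activators, Per2 to Clock, Ciart to Clock) are under 1 in every HFD library and over 1 in every LYC library. Their place against 1 depends on the gene lengths behind RPKM. For Ciart to Clock this was fixed by depth in LYC1 and LYC3. There 1 Ciart read is worth at least 1.74 RPKM, more than Clock (1.30 and 1.49).

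The HFD libraries also differed among themselves. Between HFD1 and HFD2, the deepest libraries, the exact 95% interval of the ratio excluded 1 for 5 of the 9 genes, a comparison of these libraries that covers counting error only. The share over all genes was not computed, so such counts are not read as a trait of the clock genes. Arntl was 2.29 times (1.51 to 3.50) and Npas2 4.10 times (2.10 to 8.49) higher in HFD1. The period genes were higher in HFD2, Per1 by 4.05 times (2.24 to 7.91), Per2 by 1.97 times (1.19 to 3.39) and Per3 by 3.92 times (1.15 to 20.7). Between HFD2 and HFD3 the interval excluded 1 for Clock and Per1, between LYC1 and LYC2 for Cry1 and Cry2, and in the 3 remaining pairs for none of the genes.

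RPKM is per length, so the genes can be ordered by it. The length used was 9744 bases for Clock and 1395 for Ciart. Which part of a length ribosomes cover was not examined, so the order is one of RPKM and not of footprint density. In HFD the order was Clock at 6.66, Cry2 at 6.46, Cry1 at 5.79, Arntl at 5.62, Per1 at 2.32, Per2 at 1.86, Npas2 at 1.68, Ciart at 0.516 and Per3 at 0.501 RPKM, and the ranges of all neighbours overlapped. In LYC it was Cry2 at 8.59, Cry1 at 6.42, Ciart at 6.00, Per2 at 4.61, Per1 at 3.94, Clock at 1.81 and Per3 at 1.45 RPKM, again with overlapping neighbours, and then Arntl and Npas2 at 0. In LYC the floors of 3 reads are 2.84 RPKM for Arntl and 1.96 RPKM for Npas2. Both lie above the means of Clock and Per3, so the order of these genes is not resolved. By the means Clock stood in the 1st place in HFD and in the 6th in LYC. The place of Ciart rests on 4 and 9 reads, with an HFD mean under its floor of 3 reads per library (1.28 RPKM) and a LYC mean near it (5.86 RPKM), and no change of place is read from it. Among all genes tested Clock stood at the 53.2nd percentile in HFD and the 27.5th in LYC.

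The gene outside the clock set with the most similar profile over the 6 libraries was Reep4 for Arntl, Ikbkg for Clock, Mitf for Npas2, Slc25a20 for Per1, Atp5b for Per2, Commd9 for Per3, Snord23 for Cry1, Pold2 for Cry2 and Tfg for Ciart, with Pearson's r of 0.99 to 0.999 on the log2 scale. With 6 libraries in 2 groups such values are easily reached: 14 to 226 genes had an r above 0.95 with a given clock gene, and the libraries share the difference in depth.

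Of 39 genes that modify or assist the clock proteins, such as casein kinases, ubiquitin ligases and deacetylases, 38 were tested, and limma called 1 higher and 0 lower (2.63% called, against 10.2% of all genes in either direction; at a median log2 fold change of -0.09). At the same limits edgeR called 2 higher, Usp2 and Csnk2b (log2 fold change 1.13, adjusted p = 0.0323), and 1 lower, Crebbp (-1.30, adjusted p = 0.0539), or 7.89% against 11.9% of all genes. The gene called by limma was Usp2, a deubiquitinase that acts on clock proteins, with 0.778, 1.32 and 0.954 RPKM in HFD and 10.1, 5.12 and 7.72 RPKM in LYC. Its mean was 7.5 times higher in LYC, or 2.20 as a log2 fold change with a standard error of 0.44 (limma, adjusted p = 0.0292). Of the 11 genes of the receptor and bZIP arm 9 were tested, and limma called 1 higher and 0 lower, 11.1% and thus near the 10.2% of all genes. This was Dbp, a bZIP activator, with 1.09, 7.30 and 5.00 RPKM in HFD against 21.2, 51.7 and 31.8 RPKM in LYC (log2 fold change 3.01, adjusted p = 0.0187, limma). By edgeR 2 were called higher, Dbp and Tef (1.36, adjusted p = 0.0136), and 1 lower, Hlf (-1.56, adjusted p = 0.0493), or 33.3% of these 9 genes against 11.9% of all. Rora, which encodes a receptor that acts on the RORE, had 69.6, 94.0 and 73.3 RPKM in HFD and 46.4, 29.4 and 37.5 RPKM in LYC. It lay lower in all 3 LYC libraries, 2.09-fold by the means, but was not called (log2 fold change -0.87, adjusted p = 0.120, limma). Nr1d1 and Nr1d2, which encode the REV-ERB receptors, overlapped between the groups, with log2 fold changes of -0.58 and 0.20 (adjusted p = 0.491 and 0.724, limma).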

How the data were processed

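Livers of HFD and LYC mice gave 6 Ribo-seq libraries and 6 libraries labelled RNA-seq. The authors deposited RPKM for Ribo-seq, and read counts and RPKM for the table labelled RNA-seq, and the processing notes name FANSE2, STAR, bowtie2 and cutadapt, with the build GRCm38/mm10; versions, annotation and filters are not given in the sources used here. Gene lengths were computed from the deposited counts and RPKM, and reads from RPKM, length and step size. The length of that table gave whole reads (within 0.02) for 11129 genes and a fitted length for 4620; Arntl, Clock and Per3 took fitted lengths. Of the 25033 rows, 4 that shared a name were left out.

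Limma 3.58.1, edgeR 4.0.16 and DESeq2 1.42.0 (R 4.3.3) with Benjamini-Hochberg adjustment over all genes were used after a check on simulated counts; alternatives were other scalings, filters, pseudocounts, limits and tools, and each library left out. The filter on a mean of 2 CPM replaced filterByExpr, which drops 4 of the 9 genes. Nothing ties the replicate numbers of HFD and LYC. The p-values measure the spread between these libraries. The genes and lists were chosen with earlier results of these data known; named are the 9 genes, called genes of the lists and the most similar genes, and, chosen after their values were seen, the list genes called by edgeR alone and the receptor genes Rora, Nr1d1 and Nr1d2. A withheld item is not reported here. Motifs and overlaps used RefSeq windows and GENCODE M21. None of the 36 pairs of clock genes shares a transcript stretch of 28 bases. A planned comparison of protein sequences was not run.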

Additional observations from a re-analysis of the deposited data

How the results depend on the processing

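For Ribo-seq, 383 genes were called higher and 741 lower in LYC, and of the 9 clock genes 1 and 3. DESeq2 called 610 genes higher and edgeR 2 clock genes higher, as did DESeq2. An adjusted p below 0.05 left 250 and 398 genes and 0 and 1 clock genes. With p below 0.001 there were 166 and 206 genes and 0 and 1 clock genes, and filterByExpr left 432 genes lower and 0 and 1 clock genes. The counts without 1 library ran from 233 to 527 higher and 373 to 1163 lower, and for clock genes from 0 to 1 and 1 to 2. Arntl was called under all 14 alternatives run, Ciart under 11 of 14, Npas2 under 6 of 14 and Clock under 5 of 15, and Per1, Per3 and Cry2 under none. The 14 do not hold filterByExpr, which drops Arntl, Ciart and Npas2. These genes entered the test only through 1 group, so their tallies are not read as stability. The log2 fold change of Cry1 turned to 0.50 with DESeq2, 0.37 with edgeR and 0.10 without HFD1, and ran from -0.68 to 0.79 without 1 library.

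For the counts labelled RNA-seq, 554 genes were called higher and 854 lower, and 2 and 2 clock genes. By total library size these became 176 and 3797, with 1 clock gene higher, and Cry1 turned to -0.55, Cry2 to -0.38 and Per1 to -0.10. DESeq2 called 530 lower, p below 0.001 gave 367 and 359, and filterByExpr 0 and 1 clock genes, as p below 0.001 gave 0 higher. Without 1 library 0 to 2 clock genes were higher, and Cry1 ran from -0.46 to 0.86.

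The replicate numbers did not pair the samples: deviations of same-numbered HFD and LYC libraries correlated at 0.0679, 0.0163 and -0.00555. With the replicate number as a block 371 genes were called higher and 581 lower, and 1 and 1 clock genes, and in the counts labelled RNA-seq 438 and 713 genes and 0 and 2 clock genes. The cause of these differences was not tested. Depth limits the low genes most: 3 reads in a LYC library, the floor used, are 2.84 RPKM for Arntl.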
